A study of Mus musculus with 8 samples.

Results

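Cd38, Bst1, Nampt, Parp14 and Nadk are 5 genes of enzymes that consume, make or phosphorylate nicotinamide adenine dinucleotide (NAD), and they are 5 of the 24787 genes counted in the series. They were taken by name, and they were chosen with their levels in cell classes and treatments already known, so those levels are described here without a test. Single cells came from subcutaneous MC38 colon carcinoma tumors of mice, taken 24 h after an injection of saline (3 tumors), free R848 (3 tumors) or medium R848-BPDs (2 tumors). R848 (resiquimod) is an agonist of the endosomal receptors TLR7 and TLR8, and a bottlebrush prodrug (BPD) carries it on a polymer and releases it by cleavage of an ester linker, here the linker of medium release rate. Each library is 1 tumor of 1 mouse, and all 8 share the tumor line and the time point. The study's methods describe MC38 tumors as grown in C57BL/6 mice and list female C57BL/6J mice, 8 weeks old, among the strains. The labels of these tumors give neither strain nor age. CD45+ and CD45- cells were separated on beads and loaded on Seq-Well arrays with CD45+ cells in large excess, so the shares of immune and tumor cells were set by the loading.

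NAD is a carrier of electrons, and it is also cut as a substrate. CD38 and BST1 (CD157) are surface ectoenzymes that split NAD and make cyclic ADP-ribose and ADP-ribose, and their genes are neighbours that arose by duplication. CD38 is best known as an activation marker of lymphocytes and inflammatory macrophages. NAMPT makes nicotinamide mononucleotide from nicotinamide and is the rate-limiting enzyme of NAD salvage, NADK phosphorylates NAD to NADP, and PARP14 is a mono-ADP-ribosyltransferase known from interferon-stimulated and IL-4 responses. In GENCODE vM21 (GRCm38), all 5 are protein-coding. Bst1 lies on chromosome 5 from 43818885 to 43843986 on the plus strand, and Cd38 follows it on the same strand from 43868553 to 43912375, with 24566 bases between them. Nadk lies on chromosome 4 from 155562378 to 155591001 (plus), Nampt on chromosome 12 from 32819545 to 32853349 (plus) and Parp14 on chromosome 16 from 35832874 to 35871544 (minus).

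The 8 libraries held 5867590 to 12422614 UMIs (unique molecular identifiers, which count captured transcripts), and 9578 cells were kept and grouped by marker genes. The classes with at least 10 cells in every tumor were monocyte/macrophage-like (5341 cells), MC38-like (1627), NK-like (971), DC-like (629) and T-like (499). The nonmalignant cells were clustered without the NAD genes. Of the barcodes, 23 occurred in at least 2 libraries, and the 59 such cells past the quality limits were left out. In the monocyte/macrophage-like cells, 9 of 9 macrophage markers and 7 of 7 monocyte markers had UMIs in every treatment. The 7 osteoclast markers summed to 123 to 457 CPM in this class after saline, 542 to 618 CPM after free R848, and 916 and 1251 CPM after medium R848-BPDs, with 6, 6 and 5 of them found, Calcr and Oscar at 0 after medium R848-BPDs, and their part in the results was not tested. The library of saline tumor 2 stood apart: clusters 2, 3 and 11, which are led by C1q genes, held 31.7%, 24.1% and 15.7% of its monocyte/macrophage-like cells and at most 10.8%, 4.5% and 1.8% of those of the other saline tumors. The list counts in this class and the genes they add are also given without that tumor. A level is given in CPM, the UMIs of a gene scaled to all UMIs of the class in a tumor, and it compares a gene with itself between samples, not one gene with another.

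Cd38 was far higher in monocyte/macrophage-like cells of medium R848-BPD tumors than in those of the other tumors. Its level was 4.03, 23.1 and 5.89 CPM in the 3 saline tumors, 28.7, 18.1 and 13.8 CPM in the free R848 tumors, and 283 and 436 CPM in the medium R848-BPD tumors. Both medium R848-BPD tumors lay above all others, while the free R848 and saline tumors overlapped through saline tumor 2. The fitted fold change was 31.4 over saline (log2 4.97, SE 0.56) and 18.3 over free R848 (log2 4.19, SE 0.54), and free R848 stood 1.72-fold above saline (log2 0.78, SE 0.53). Without saline tumor 2, the log2 change over saline was 6.22 for medium R848-BPDs and 2.04 (SE 0.42, 4.10-fold) for free R848. Of the 5 genes, Cd38 and Bst1 were among those called over saline, where edgeR called 7.12% of 10556 genes tested, and over free R848, where it called 1.61%, but these calls use the values by which the genes were chosen. Both calls over free R848 were lost in turn without free R848 tumor 2, free R848 tumor 3 and medium R848-BPD tumor 2, and that of Bst1 also with the replicate number as a block. Of all Cd38 UMIs in the kept cells, the unnamed cluster included, 89.3% came after medium R848-BPDs from monocyte/macrophage-like cells, against 65.6% after saline and 74.0% after free R848, although this class held 47.4%, 60.2% and 57.0% of the cells.

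Bst1 followed the same order of treatments. Its level in monocyte/macrophage-like cells was 71.1, 69.3 and 72.8 CPM after saline, 116, 67.6 and 94.8 CPM after free R848, and 309 and 697 CPM after medium R848-BPDs. The saline tumors were almost equal (71.1 ± 1.76 CPM, SD, n = 3), whereas the 2 medium R848-BPD tumors differed by more than the whole range of the other 6. The fold change was 7.33 over saline (log2 2.87, SE 0.34) and 5.65 over free R848 (log2 2.50, SE 0.34), and it was 1.30 for free R848 over saline (log2 0.37, SE 0.31). Without medium R848-BPD tumor 2, the higher of the 2, the log2 changes of Bst1 were 2.10 over saline and 1.73 over free R848. As a scale for these changes, Saa3, an acute-phase serum amyloid A gene, stood at 4.5 to 93.4 CPM after saline, 104 to 133 CPM after free R848, and 11427 and 15673 CPM after medium R848-BPDs.

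The other 3 genes showed no such shift in the same cells. Nampt had 493 ± 41.8 CPM after saline (SD, n = 3), 497 ± 93.0 CPM after free R848 (n = 3), and 436 and 581 CPM after medium R848-BPDs. Parp14 had 502 ± 32.0, 519 ± 65.8, and 427 and 572 CPM, and Nadk had 152 ± 11.0, 166 ± 17.0, and 186 and 151 CPM. For each of the 3 genes, the range after medium R848-BPDs overlapped the ranges after saline and free R848. Their log2 changes over saline were 0.09 (SE 0.20) for Nampt, 0.03 (SE 0.20) for Parp14 and 0.18 (SE 0.12) for Nadk. So the large changes were those of the 2 surface ectoenzymes, and the 3 intracellular enzymes had changes under 0.2 on the log2 scale.

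**Figure D1:**
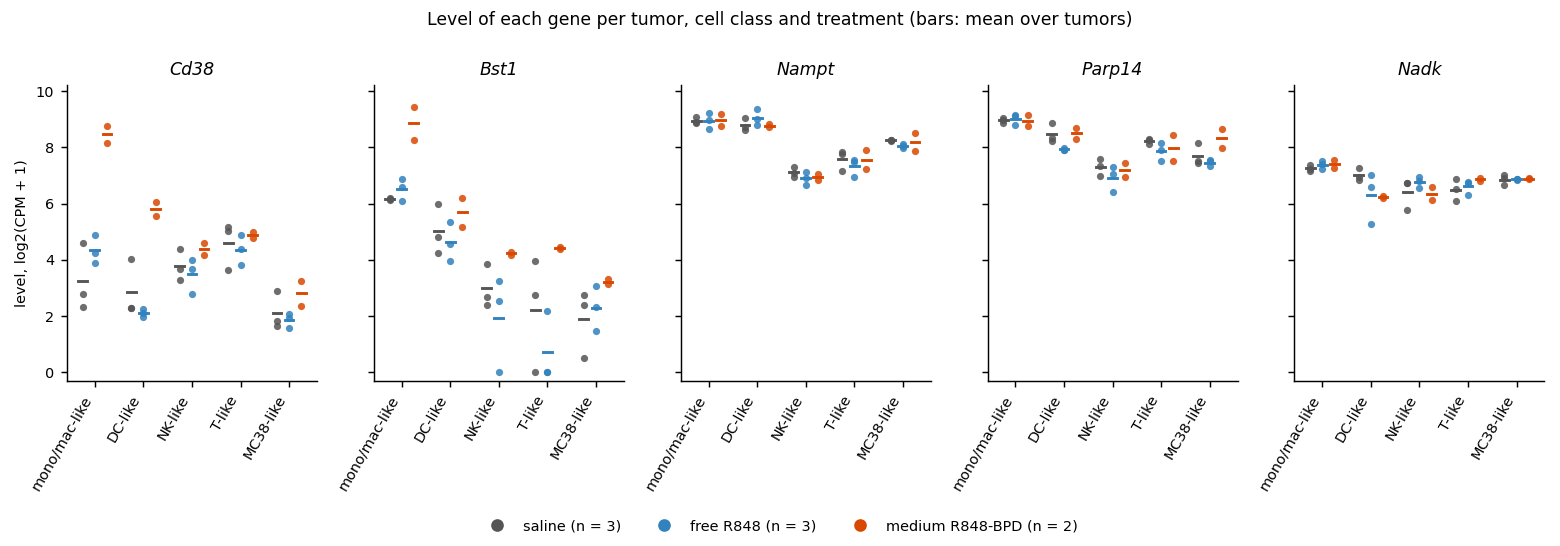
Level of each of the 5 genes, as log2(CPM + 1), in the 5 cell classes, with 1 point per tumor coloured by treatment and a bar at the mean of the log2 values. The 2 medium R848-BPD points for Cd38 (283 and 436 CPM) and Bst1 (309 and 697 CPM) stand above all others in monocyte/macrophage-like cells, while Nampt, Parp14 and Nadk overlap between treatments there.

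The higher Cd38 was spread over the whole class. In all 10 clusters of monocyte/macrophage-like cells, with cells pooled over the tumors of a treatment, Cd38 ran from 136 to 480 CPM after medium R848-BPDs (median 351), from 1.6 to 32.8 CPM after saline (median 6.5) and from 7.9 to 35.1 CPM after free R848 (median 19.9). The lowest cluster after medium R848-BPDs was therefore above the highest after either other treatment. Bst1 reached 875 CPM in cluster 0, led by Apoe and C1qb, from 515 CPM in medium R848-BPD tumor 1 and 1447 CPM in tumor 2, so the height of that cluster came largely from tumor 2. It was 118 and 122 CPM in the 45 and 13 cells of tumors 1 and 2 in cluster 2, led by C1q genes with Mki67, a proliferation marker, among its leaders. In cluster 3, also led by C1q genes, tumor 1 had 84.1 CPM in 116 cells and tumor 2 had 363 CPM in 13 cells, so the pooled 101 CPM was mostly tumor 1. Cd38 had 132 and 159 CPM in cluster 2 and 129 and 302 CPM in cluster 3 in these tumors. After free R848 the highest Bst1 was in cluster 9, led by Lyz2 and Plac8 with Ly6c2, at 215 CPM against 45.8 CPM after saline. The makeup of the class moved with treatment as well: cluster 7, led by Il1b and Thbs1, held 21.4%, 2.55% and 23.4% of the class in the saline tumors, 3.17% to 6.05% in the free R848 tumors, and 1.30% and 0.99% in the medium R848-BPD tumors. Within cluster 7 Cd38 had 2.73 CPM after saline and 444 CPM after medium R848-BPDs, the latter from 29 UMIs in 9 and 5 cells of the 2 tumors.

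**Figure D2:**
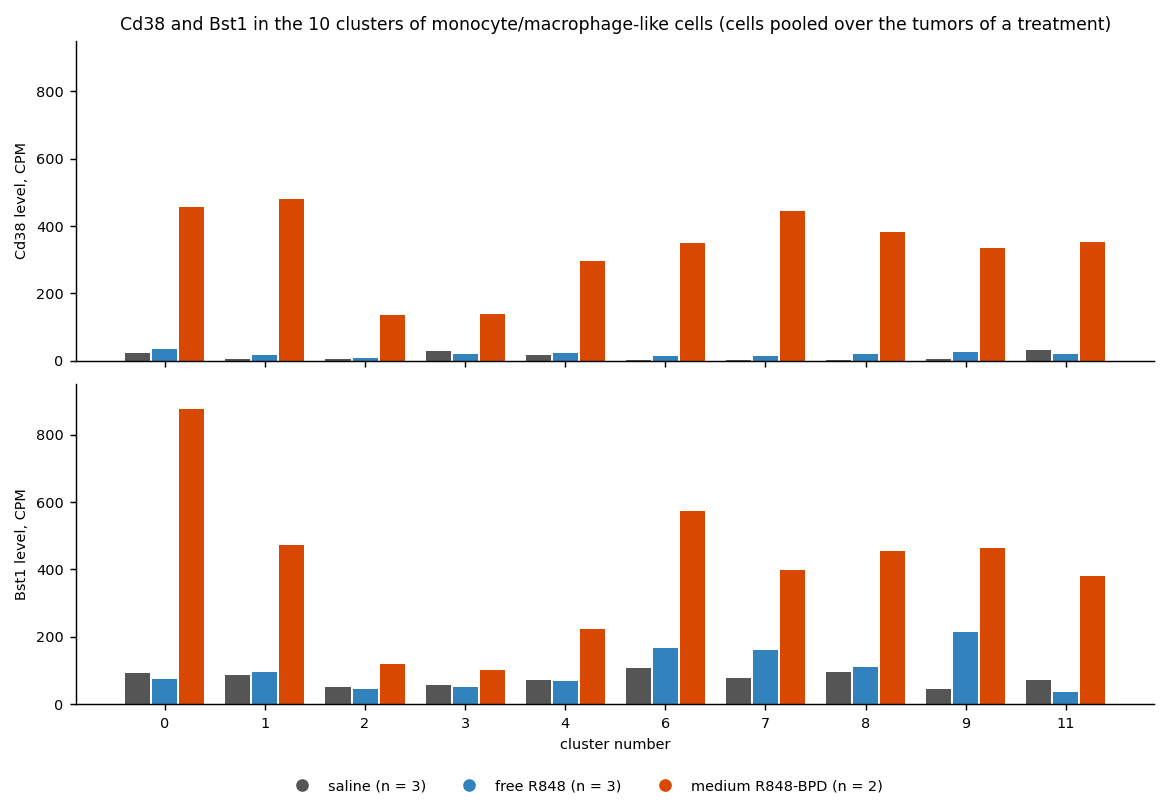
Cd38 (top) and Bst1 (bottom) in CPM in the 10 clusters of monocyte/macrophage-like cells, with 1 bar per treatment over cells pooled from its tumors, so the bars carry no replicate error. Cd38 after medium R848-BPDs lies between 136 and 480 CPM in every cluster, and Bst1 has 875 CPM in cluster 0, where the 2 medium R848-BPD tumors had 515 and 1447 CPM.

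More cells carried the transcripts, as well as more UMIs in all. With each cell thinned to 1000 UMIs, 0.26%, 2.33% and 0.60% of monocyte/macrophage-like cells had a Cd38 UMI in the saline tumors, and 2.38%, 1.20% and 1.62% in the free R848 tumors. In the medium R848-BPD tumors the shares were 23.5% (163 of 693 cells) and 30.4% (153 of 504 cells). Cells of the class under 1000 UMIs were left out, which removed 23 cells of saline, 5 of free R848 and 1 of medium R848-BPD tumors. Without thinning the mean shares were 4.57%, 7.75% and 65.7% after saline, free R848 and medium R848-BPDs. In MC38-like cells, the class of tumor cells, 1.33% (2 of 150) and 0% (0 of 446) of cells had a Cd38 UMI in the 2 medium R848-BPD tumors at the thinned depth. The median depth before thinning was 11009.5 UMIs there and 5268 UMIs in monocyte/macrophage-like cells. For Bst1 the shares in monocyte/macrophage-like cells were 4.74% to 7.21% after saline, 5.88% to 10.1% after free R848, and 25.4% and 38.3% after medium R848-BPDs. The shares for Nampt (33.2% to 43.7%), Parp14 (33.6% to 41.5%) and Nadk (12.5% to 17.3%) overlapped between all 3 treatments.

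Cd38 and Bst1 were found together in part of the cells. A cell was called positive where it had a Cd38 UMI at the thinned depth, so negative cells were cells of lower detection, not cells without the transcript: with all their UMIs, negative cells of medium R848-BPD tumors 1 and 2 had 186 and 293 CPM of Cd38, against 633 and 748 CPM in positive cells, and both values exceed the level of the whole class in every saline and free R848 tumor. In medium R848-BPD tumor 1, 36.2% of the Cd38-positive cells and 22.1% of the Cd38-negative cells had a Bst1 UMI, and in tumor 2 the shares were 42.5% and 36.5%. Both tumors showed the same direction, with 59 and 65 cells positive for both. Of all cells, 25.4% and 38.3% had a Bst1 UMI in tumors 1 and 2, so the excess in Cd38-positive cells was small in tumor 2. Saa3 was found in 73.6% of Cd38-positive and 64.2% of Cd38-negative cells in tumor 1, and in 78.4% and 65.5% in tumor 2. The shares for Nampt in Cd38-positive and Cd38-negative cells were 33.7% and 33.6% in tumor 1 and 38.6% and 37.9% in tumor 2, and those for Parp14 were 30.7% and 34.5%, and 38.6% and 39.3%.

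**Figure D3:**
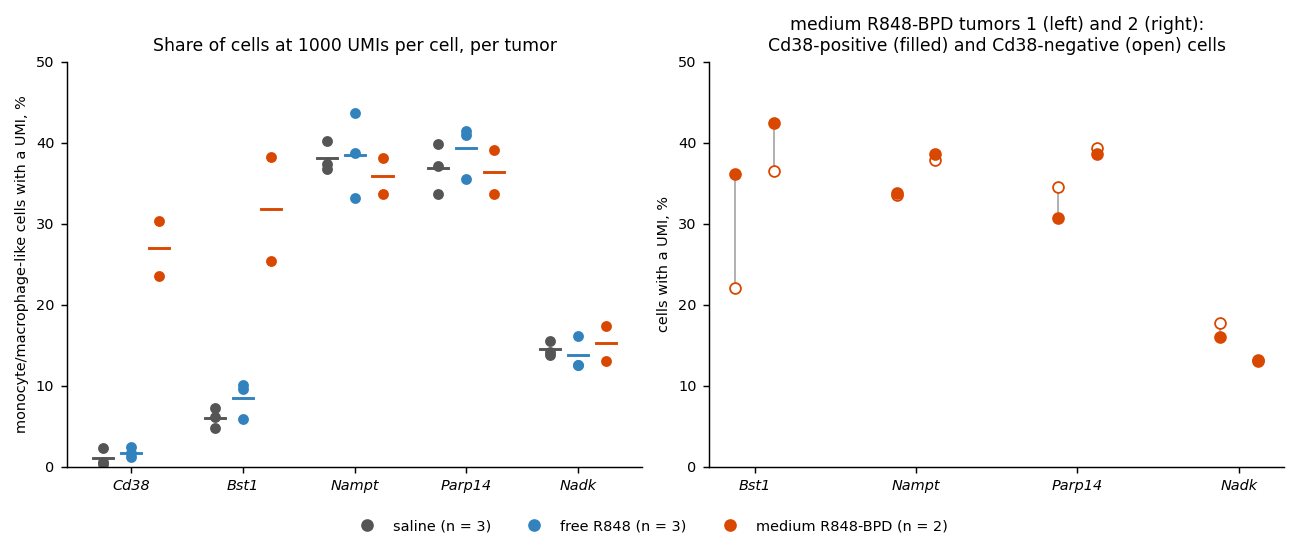
Left, share of monocyte/macrophage-like cells, in percent, in which each gene had a UMI after thinning to 1000 UMIs per cell, with 1 point per tumor and a bar at the mean. Right, in the 2 medium R848-BPD tumors, percent of Cd38-positive (filled) and Cd38-negative (open) cells with a UMI of the other 4 genes, where the gap is widest for Bst1 in tumor 1 (36.2% against 22.1%).

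In DC-like cells Cd38 also stood higher after medium R848-BPDs, at a lower level. It had 3.85, 15.4 and 3.88 CPM after saline, 3.78, 2.89 and 3.30 CPM after free R848, and 46.2 and 66.2 CPM after medium R848-BPDs, from 34 and 21 UMIs. Both medium R848-BPD tumors lay above the other 6, whose counts were 1 to 3 UMIs each. The fold change was 9.64 over saline (log2 3.27, SE 0.64) and 15.2 over free R848 (log2 3.93, SE 0.70). Cd38 passed the filter on low counts here through the medium R848-BPD tumors alone, so it had to differ, and these folds rest on the few UMIs of the other tumors. Cd38 was the only one of the 5 genes called in DC-like cells, where edgeR called 14.8% of 5672 genes over saline and 0.97% over free R848, but these calls use the values by which the genes were chosen. The call over free R848 was lost with the replicate number as a block and in turn without free R848 tumors 2 and 3 and either medium R848-BPD tumor, and the call over saline without medium R848-BPD tumor 2 and without saline tumor 1. With direct marker gates Cd38 did not pass the filter in this class and was not tested. For free R848 over saline, none of the 5 was called against 3.54% of genes. Bst1 had 18.0 to 61.6 CPM after saline and 35.3 and 72.5 CPM after medium R848-BPDs, which overlapped. Nadk had 113 to 151 CPM after saline and 76.0 and 72.5 CPM after medium R848-BPDs, with no overlap, but the free R848 tumors ranged from 37.8 to 129 CPM.

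In lymphoid and tumor cells the levels of Cd38 and Bst1 were low. In NK-like cells Cd38 had 8.63 to 19.8 CPM after saline, 5.96 to 14.8 CPM after free R848, and 23.4 and 17.1 CPM after medium R848-BPDs. Bst1 had 4.24 to 13.6 CPM, 0 to 8.53 CPM, and 18.5 and 17.1 CPM there. In T-like cells, which express Cd38 on activation, it had 11.3 to 34.6 CPM after saline, 13.04 to 28.6 CPM after free R848, and 31.1 and 26.4 CPM after medium R848-BPDs, so the treatments overlapped. Bst1 in T-like cells had 0 to 14.4 CPM after saline, 0 to 3.58 CPM after free R848, and 20.7 and 19.8 CPM after medium R848-BPDs. Cd38 and Bst1 did not pass the filter on low counts in T-like cells, where 3 of the 5 genes were tested. In MC38-like cells Cd38 had at most 8.60 CPM in any tumor, and Bst1 at most 7.48 CPM after saline and free R848 and 7.79 and 8.87 CPM after medium R848-BPDs. So both medium R848-BPD tumors lay above all others for Bst1 in NK-like, T-like and MC38-like cells, at low levels. Saa3, which had 0 UMIs in NK-like and T-like cells of the 3 saline tumors, had 354 and 223 CPM in NK-like and 1709 and 423 CPM in T-like cells after medium R848-BPDs. For every 100 Saa3 UMIs there were 2.48 and 2.78 Cd38 UMIs in monocyte/macrophage-like cells, 5.19 and 2.73 in DC-like, 6.60 and 7.69 in NK-like, 1.82 and 6.25 in T-like and 3.87 and 1.80 in MC38-like cells. The part of RNA from other cells in the Cd38 and Bst1 levels of these classes was not tested.

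Parp14 in MC38-like cells had 180, 283 and 174 CPM after saline, 181, 159 and 186 CPM after free R848, and 250 and 403 CPM after medium R848-BPDs. The higher medium R848-BPD tumor lay above all others, while the lower one fell within the saline range. The log2 change was 0.64 (SE 0.23) over saline and 0.94 (SE 0.23) over free R848. Nampt in these cells ranged from 233 to 359.6 CPM and Nadk from 100.1 to 128 CPM over all 8 tumors.

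The order of the classes shows how far Cd38 moved. After saline the mean levels ran from T-like (25.9 ± 12.7 CPM, SD, n = 3) over NK-like (13.4 ± 5.77), monocyte/macrophage-like (11.0 ± 10.5) and DC-like (7.71 ± 6.66) to MC38-like cells (3.68 ± 2.34), and each neighbour overlapped the next. After medium R848-BPDs monocyte/macrophage-like cells came first (359.5 ± 108 CPM, n = 2), followed by DC-like (56.2 ± 14.1), T-like (28.8 ± 3.31), NK-like (20.2 ± 4.42) and MC38-like cells (6.34 ± 3.21), with no overlap between neighbours. For Bst1, monocyte/macrophage-like and DC-like cells came first and second in all 3 treatments, apart from each other and from the rest. Nampt was highest in these same 2 classes in every treatment, with overlapping ranges, and lowest in NK-like cells. Parp14 was highest in monocyte/macrophage-like cells and lowest in NK-like cells in every treatment. Nadk was highest in monocyte/macrophage-like cells in every treatment, overlapping DC-like cells after saline only.

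Small classes gave sums without a replicate test, with exact Poisson 95% intervals that cover counting error only. In neutrophil-like cells, Bst1 had 1 UMI in 14 cells after saline (20.3 CPM, interval 0.51 to 113), 202 CPM after free R848 (156 to 256; 72 cells) and 663 CPM after medium R848-BPDs (565 to 773; 53 cells). Cd38 in these cells had 0 UMIs after saline, which allows up to 60.9 CPM, and 12.03 CPM (3.28 to 30.8) and 201 CPM (148 to 265) after free R848 and medium R848-BPDs. In osteoclast-like cells, Cd38 had 0 UMIs after saline and after free R848, which allows up to 4.09 and 4.13 CPM, and the 6 cells after medium R848-BPDs held 1 UMI.

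The wider NAD pathway was examined through a list of 67 genes, the 5 among them, of which 49 passed the filter on low counts in monocyte/macrophage-like cells. In this class 5 list genes were called for medium R848-BPDs over saline, 4 higher and 1 lower, against 7.12% of all genes: Cd38, Bst1 and 3 of the other 44. The median log2 change was 0.11 over the list, with 33 of 49 genes higher, and -0.0033 over all genes, but the list median was 0.03 without saline tumor 2 (26 of 49 higher) and 0.01 without medium R848-BPD tumor 2 (27 of 50). For free R848 over saline none of 49 was called, against 0.0189% of all genes, with 3 list genes (6.12%) at an unadjusted p under 0.05 against 11.0% of all genes, and DESeq2 called 1. Over free R848 only Cd38 and Bst1 were called, and no list gene was called without free R848 tumor 2, free R848 tumor 3 or medium R848-BPD tumor 2. Without saline tumor 2, edgeR called 9 list genes over saline (5 higher, 4 lower) and 1222 of 10470 genes in all. The 4 added were Parp11, a mono-ADP-ribosyltransferase (log2 1.08, edgeR adjusted p = 0.0111), Adora2b, an adenosine receptor (-1.52, 0.00179), Art3 (-2.76, 0.0206) and Nt5e (-2.06, 0.0474), where with all tumors their adjusted p were 0.456, 0.208, 0.0636 and 0.267. For free R848 over saline, 3 list genes and 112 genes in all were then called: Parp11 (log2 1.03, edgeR adjusted p = 0.0485), Adora2b (-0.91, 0.0485) and Sirt7 (0.66, 0.0344). For medium R848-BPDs over free R848, 5 list genes and 589 genes in all were called, with P2rx7 (log2 0.88, edgeR adjusted p = 0.0265), Haao (-3.15, 0.00721) and Art3 (-3.04, 0.0157) added to Cd38 and Bst1.

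Among the synthesis genes, Haao fell after medium R848-BPDs. It codes for the dioxygenase that makes quinolinate from 3-hydroxyanthranilate on the route from tryptophan to NAD. Haao had 21.3, 49.7 and 16.6 CPM after saline, 21.2, 10.22 and 14.9 CPM after free R848, and 2.38 and 0.379 CPM after medium R848-BPDs, from 13 and 1 UMIs. Both medium R848-BPD tumors lay under all others. It fell by 4.11 on the log2 scale against saline (SE 0.67, edgeR adjusted p = 0.0104), with log2 changes of -3.31 with direct marker gates, -3.51 without saline tumor 2 and -6.08 without medium R848-BPD tumor 1, and without medium R848-BPD tumor 2 the adjusted p was 0.0882. In each of the 10 clusters it was lower after medium R848-BPDs than after saline, for instance 0 against 43.0 CPM in cluster 4 and 1.3 against 45.6 CPM in cluster 11. Kmo, which acts upstream of Haao, had a log2 change of -1.41 (edgeR adjusted p = 0.302), and Haao and Kmo were the only genes of this route that passed the filter here.

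P2rx7, the ATP-gated channel that extracellular NAD can engage through ADP-ribosylation, rose after medium R848-BPDs. It had 49.3, 65.9 and 57.4 CPM after saline, 59.5, 81.6 and 70.3 CPM after free R848, and 107 and 147 CPM after medium R848-BPDs (log2 1.18, SE 0.20, edgeR adjusted p = 0.0114). Without medium R848-BPD tumor 2 the adjusted p was 0.108. Over free R848 its log2 change was 0.89 with an edgeR adjusted p of 0.0646. Sirt7, a nuclear sirtuin, rose over saline (log2 0.62, SE 0.11, edgeR adjusted p = 0.0160), from 61.6 to 75.0 CPM to 104 and 98.5 CPM. The 3 free R848 tumors stood at 101.5 to 106 CPM, also above all saline tumors, with an edgeR adjusted p of 0.271. The Sirt7 call was lost without either medium R848-BPD tumor (adjusted p = 0.0605 and 0.121 by edgeR), without saline tumor 1 (0.0646) and with only the 2 treatments in the fit (0.0693).

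With all tumors, none of the 16 tested PARP family genes was called, against 7.12% of all genes, and Parp11 was called without saline tumor 2. Parp10, a mono-ADP-ribosyltransferase, had a log2 change of 0.76 over saline (edgeR adjusted p = 0.0641) and Parp1, the main nuclear PARP, one of -0.86 (0.0767). None of the 7 tested salvage and Preiss-Handler genes was called, with log2 changes of 0.06 for Nmrk1 and 0.38 for Nmnat1. Nt5e, the ectonucleotidase CD73 that acts on products of CD38, had 83.2, 18.5 and 86.8 CPM after saline, 8.65 to 58.3 CPM after free R848, and 21.6 and 19.3 CPM after medium R848-BPDs (log2 change over saline of -1.58, edgeR adjusted p = 0.267). Saline tumor 2, at 18.5 CPM, was the saline tumor nearest to the medium R848-BPD tumors, and Nt5e was called without it.

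**Figure D4:**
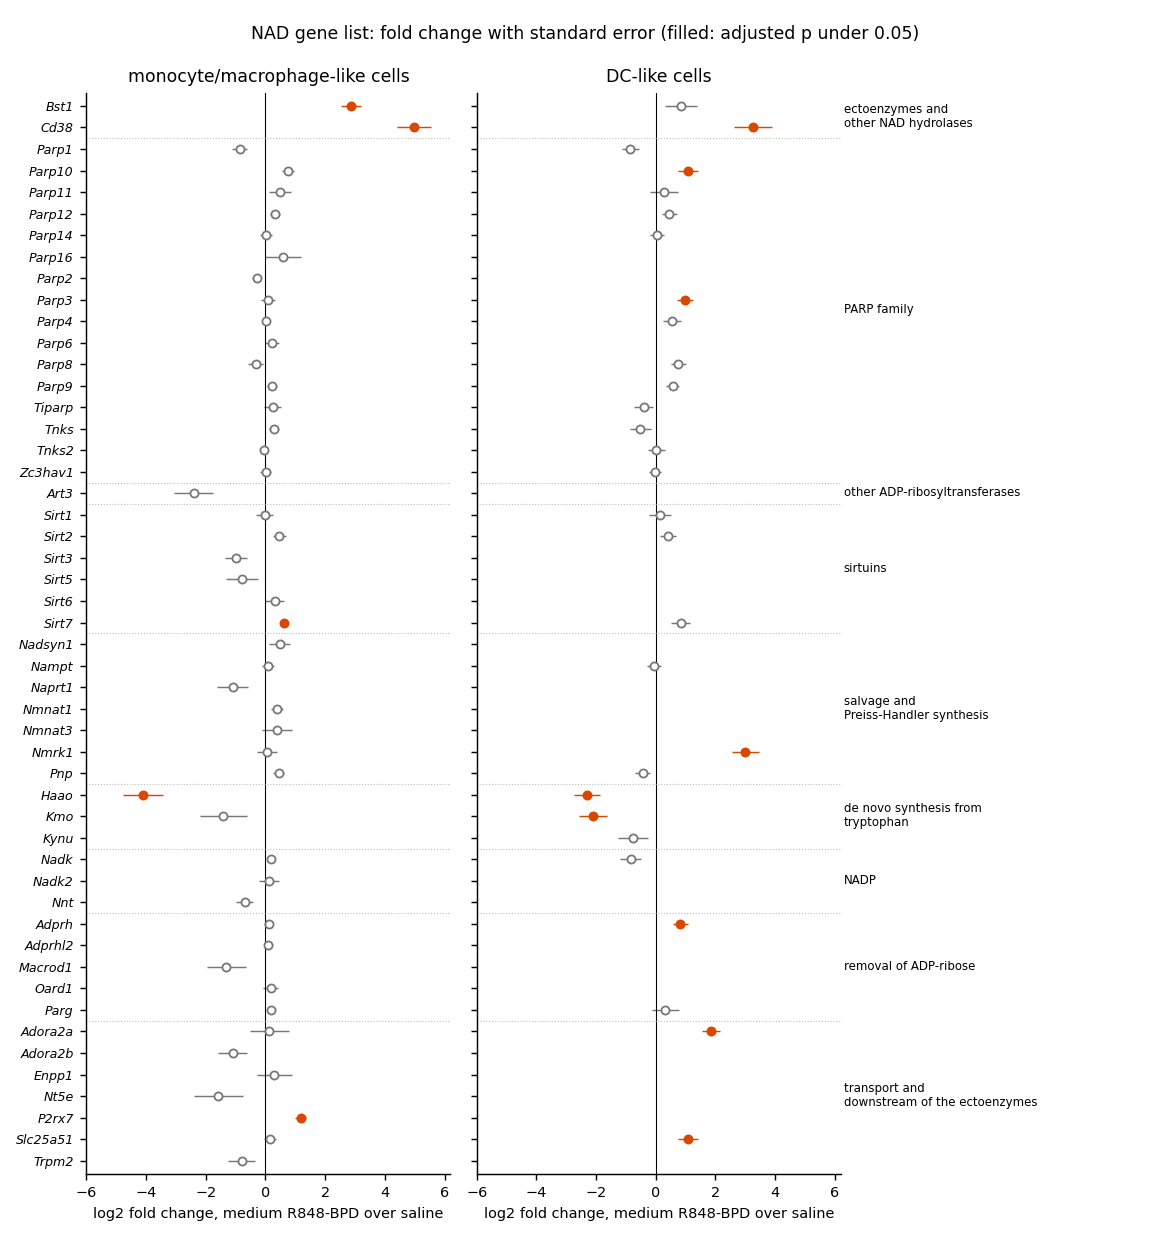
Log2 fold change of medium R848-BPD over saline tumors, with its standard error, for the NAD list genes that passed the filter in monocyte/macrophage-like (left) or DC-like cells (right), grouped by role and filled where the edgeR adjusted p was under 0.05. Cd38 (4.97) and Bst1 (2.87) lie farthest to the right and Haao (-4.11) farthest to the left in monocyte/macrophage-like cells, and 9 genes are filled in DC-like cells.

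In DC-like cells 9 of 29 tested list genes were called for medium R848-BPDs over saline, 7 higher and 2 lower, against 14.8% of all genes. Of the 24 tested list genes other than the 5, 8 were called. The count of 9 fell to 5 with DESeq2 and with the replicate number as a block, to 3 without medium R848-BPD tumor 2 and to 4 without saline tumor 1, and it was 13 without free R848 tumor 1. Nmrk1, a nicotinamide riboside kinase of salvage synthesis, rose from 7.70, 7.70 and 23.3 CPM to 84.2 and 110.3 CPM (log2 2.998, SE 0.45, edgeR adjusted p = 0.000589), with 30.2 to 52.8 CPM after free R848 in between, and its log2 change was 2.37 without saline tumor 1. Nmrk1 passed the filter on low counts in this class only through the high medium R848-BPD tumors. Its call was therefore favoured by the filter and is given as a description. Adora2a, an adenosine receptor at the end of the CD38 and CD73 route, rose from 23.1 to 35.0 CPM to 121 and 107 CPM (log2 1.85, SE 0.31, edgeR adjusted p = 0.00134). It was also the list gene called for free R848 over saline, at 94.5, 57.8 and 89.2 CPM (log2 1.33, edgeR adjusted p = 0.0342, against 3.54% of genes), a call lost with the replicate number as a block (0.0517), with DESeq2 (0.0631), with all variable genes in the clustering (0.0771), and in turn without free R848 tumors 1 and 3 and saline tumors 1 and 3 (0.0727 to 0.224). Both Nmrk1 and Adora2a kept their calls for medium R848-BPDs over saline in all 18 alternatives run.

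Of the 3 tested genes of the route from tryptophan, Haao and Kmo fell in DC-like cells, and Kynu had a log2 change of -0.76 over saline (edgeR adjusted p = 0.363). Haao had 73.1, 115.5 and 38.8 CPM after saline, 79.4, 57.8 and 72.6 CPM after free R848, and 14.9 and 12.6 CPM after medium R848-BPDs. It fell by 2.31 on the log2 scale against saline (edgeR adjusted p = 0.00284; -1.47 and 0.0486 with direct marker gates) and by 2.28 against free R848 (0.0224), where it and Cd38 were the 2 list genes called, against 0.97% of genes. The Haao call over free R848 was lost with direct marker gates (edgeR adjusted p = 0.0831), with the replicate number as a block (0.0731), and in turn without free R848 tumor 3 (0.109) and medium R848-BPD tumors 1 (0.146) and 2 (0.133), and no list gene was called for this contrast in those 5 settings. Kmo, kynurenine monooxygenase, fell by 2.10 (edgeR adjusted p = 0.00668), from 151.5 to 316 CPM to 76.0 and 31.5 CPM, with a log2 change of -2.96 without medium R848-BPD tumor 1 and an adjusted p of 0.0563 without tumor 2. A further 4 genes, Parp3, Parp10, Adprh and Slc25a51, rose with log2 changes of 0.97, 1.09, 0.82 and 1.08 and edgeR adjusted p of 0.0208, 0.0365, 0.0391 and 0.0440, and each lost its call in at least 6 of 18 alternatives, including without each medium R848-BPD tumor in turn for all but Parp10, which lost it without tumor 2 (0.300).

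The DC-like class changed in makeup at the same time. Cluster 10, led by Ccr7 and Fscn1, genes of mature migratory DCs, held 86.2% and 90.9% of DC-like cells after medium R848-BPDs, 61.1% to 82.2% after free R848 and 22.1% to 34.9% after saline, and cluster 13, led by MHC class II genes, held the rest. Within cluster 10, pooled per treatment, Haao had 56.1, 61.0 and 9.78 CPM after saline, free R848 and medium R848-BPDs, Nmrk1 had 15.6, 51.4 and 98.9 CPM, and Cd38 had 12.5, 3.21 and 53.2 CPM. These 3 genes thus differed within the cluster. Adora2a differed little within it (99.8, 114 and 130.4 CPM) and had 5.91, 3.44 and 22.4 CPM in cluster 13, where the 17 cells of medium R848-BPD tumor 1 had none and the 22.4 CPM came from the few cells of tumor 2. Kmo had 62.4, 35.3 and 29.3 CPM in cluster 10 and 336, 389 and 292 CPM in cluster 13. In saline tumors 1 and 3 and medium R848-BPD tumors 1 and 2, Parp3 had 113, 66.4, 141 and 117 CPM in cluster 10. Adprh had 86.0, 210, 198 and 170 CPM there and so overlapped. Parp10 had 64.5, 44.3, 100.4 and 180 CPM, and Slc25a51 had 48.4, 22.1, 92.6 and 70.7 CPM. With direct marker gates the class-level log2 changes over saline were 1.57 for Parp3 and 1.96 for Slc25a51. The part of the makeup in these rises was not tested. The neutrophil markers summed to 295 and 384 CPM in DC-like cells of medium R848-BPD tumors, against 20.5 to 38.8 CPM after saline, with 8 and 4 of the 8 markers found. The osteoclast markers summed to 373 and 469 CPM, against 122 to 154 CPM after saline and 71.8 to 182 CPM after free R848, with 5 of 7 found in each treatment and Calcr and Oscar at 0. The T cell markers summed to 246 and 285 CPM, against 58.3 to 153 CPM after saline and 66.0 to 454 CPM after free R848, with 12, 10 and 12 of 12 found. The macrophage markers summed to 1544 and 2818 CPM, against 905 to 5673 CPM after saline and 872 to 1878 CPM after free R848, with 9 of 9 found. In monocyte/macrophage-like cells of medium R848-BPD tumors they summed to 16643 and 19491 CPM. Of the DC-like cells, 58.7% had the same class by direct marker gates. The part of RNA from other cells in the DC-like changes, that of Cd38 included, was not tested.

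**Figure D5:**
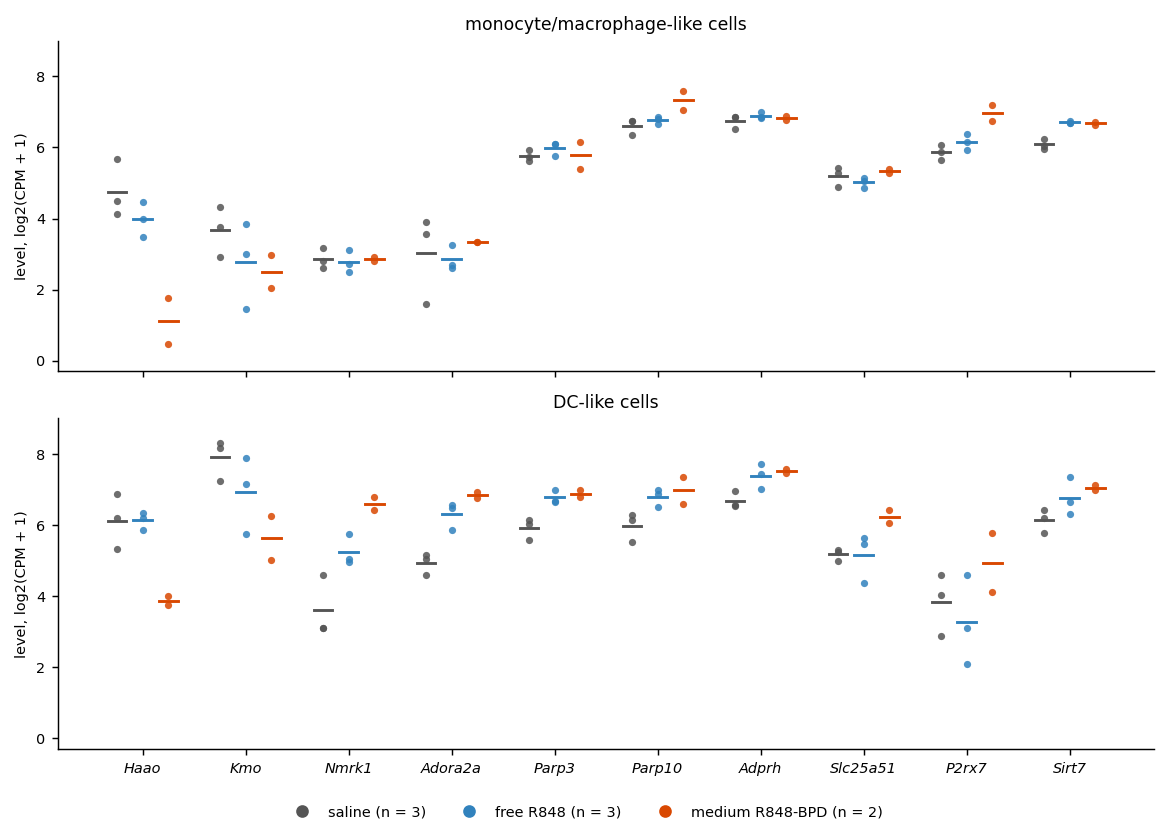
Level, as log2(CPM + 1), of the 10 other NAD list genes called in monocyte/macrophage-like (top) or DC-like cells (bottom), with 1 point per tumor and a bar at the mean of the log2 values. Haao falls in both classes after medium R848-BPDs (to 2.38 and 0.379 CPM, and to 14.9 and 12.6 CPM), while Nmrk1 rises in DC-like cells (to 84.2 and 110.3 CPM) and lies between 4.69 and 8.09 CPM in monocyte/macrophage-like cells of all 8 tumors.

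In the other 3 classes edgeR called no NAD list gene with all tumors. In NK-like cells 37 were tested, with 7 (18.9%) at an unadjusted p under 0.05 for medium R848-BPDs over saline against 10.8% of all genes, and edgeR called 0.884%, 0% and 0.271% of all genes for medium R848-BPDs over saline, free R848 over saline and medium R848-BPDs over free R848. In T-like cells 27 were tested, with 2 (7.41%) at an unadjusted p under 0.05 against 5.28% of all genes, and 0.0163%, 0% and 0.0163% of all genes were called. In MC38-like cells 41 were tested, with 9 (21.95%) at an unadjusted p under 0.05 against 14.2% of all genes, and 0.823%, 0% and 0.25% of all genes were called. DESeq2 called none in NK-like and T-like cells and, in MC38-like cells, 1 for medium R848-BPDs over saline and 3 over free R848. Without medium R848-BPD tumor 1, edgeR called 5 list genes in MC38-like cells, all higher and all of the PARP family, both over saline and over free R848, beside 440 and 294 of 11248 genes in all. They were Parp14, Parp9, Parp10, Parp12 and Zc3hav1, with log2 changes over saline of 0.95, 0.80, 0.97, 0.81 and 0.67, and this fit assumes that the lone medium R848-BPD tumor varies like the other groups. Parp14 was also called over free R848 without saline tumor 2, and these Parp14 calls use values by which it was chosen.

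Whether monocyte/macrophage-like cells responded differently from another class was tested in edgeR through the interaction of class and treatment, blocking on the tumor, for list genes other than the 5. For medium R848-BPDs over saline, Haao fell more than in NK-like cells, by 4.58 on the log2 scale (edgeR adjusted p = 0.00107, against 1.24% of genes called), and more than in T-like cells, by 3.96 (0.0243, against 0.293%). In NK-like cells Haao had 18.5 to 24.0 CPM after saline and 35.3 and 30.0 CPM after medium R848-BPDs. In T-like cells it had 5.66 to 20.2 CPM after saline, and 18.4 and 0 CPM in medium R848-BPD tumors 1 and 2. The T-like side of the difference thus rested on few UMIs and on tumors that disagreed. Against DC-like cells, where 3.17% of genes were called, the differences of Nmrk1 (-3.05, edgeR adjusted p = 0.00341), Adora2a (-2.03, 0.0199) and Nt5e (-2.93, 0.00456) passed the test. Nt5e was low in DC-like cells, with 7.70 to 14.1 CPM after saline and 24.4 and 28.4 CPM after medium R848-BPDs. In monocyte/macrophage-like cells its saline tumors ranged from 18.5 to 86.8 CPM. Within DC-like cluster 10 Adora2a differed little between treatments while the share of that cluster was higher after medium R848-BPDs, as given above, and the part of this makeup in the difference was not tested. Against MC38-like cells no other list gene was called, against 1.78% of genes. For medium R848-BPDs over free R848 the term called Haao against NK-like cells (-3.82, edgeR adjusted p = 0.0122), where 0.203% of genes were called, and no other list gene against DC-like, T-like and MC38-like cells, where 0.429%, 0.156% and 0.474% of genes were called.

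Cd38-positive and Cd38-negative monocyte/macrophage-like cells of the same tumor were then compared, after thinning to 1000 UMIs to set the gate, which separates higher from lower detection of Cd38. Only 4 tumors had at least 10 cells of each kind, with 350 positive and 2294 negative cells: both medium R848-BPD tumors, free R848 tumor 1 and saline tumor 2. edgeR with the tumor as a block called 96 of 8642 genes (1.11%), 30 higher and 66 lower in positive cells. None of the 35 NAD list genes tested was called, with 5 (14.3%) at an unadjusted p under 0.05 against 8.15% of all genes, and DESeq2 called none. Bst1 had a log2 difference of 0.64 (SE 0.16, edgeR adjusted p = 0.0566), from 260 to 487 CPM and 645 to 811 CPM between negative and positive cells of the 2 medium R848-BPD tumors. It went from 67.5 to 131 CPM in saline tumor 2, and from 116 to 110 CPM in free R848 tumor 1. Nampt had 0.26 (edgeR adjusted p = 0.550), Parp14 0.02 (0.999), Nadk 0.02 (0.999) and Haao -1.47 (0.367).

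The genes named here are the 5 called genes in each direction with the largest differences, out of those averaging 4 or more in log2 CPM. 2810417H13Rik, which codes for a PCNA-associated factor, was lower by 3.61 on the log2 scale (edgeR adjusted p = 0.000305), followed by Spc25, a kinetochore subunit (-2.81), Clspn, a replication checkpoint adaptor (-2.59), Kif15, a spindle kinesin (-2.51), and Aspm, a spindle-pole protein (-2.45). In medium R848-BPD tumors 1 and 2, 2810417H13Rik had 29.0 and 16.0 CPM in negative and 3.38 and 1.21 CPM in positive cells. The called genes higher in positive cells by the most were the chemokine gene Ccl8 (1.90, edgeR adjusted p = 0.00537), the TAM receptor ligand Gas6 (1.85), the adhesion molecule Vcam1 (1.85), Fcna, a ficolin gene (1.67), and Gbp2b, a guanylate-binding protein gene (1.49). Ccl8 had 108 and 849.6 CPM in negative and 388 and 1220.1 CPM in positive cells of these tumors. It had 191 and 2349.7 CPM in negative and positive cells of saline tumor 2. In medium R848-BPD tumors 1 and 2, Gas6 went from 24.1 to 36.4 and 30.4 to 61.5 CPM between negative and positive cells. Vcam1 went from 13.8 to 70.2 and 38.6 to 54.3 CPM there, and Fcna from 12.4 to 49.9 and 53.5 to 85.7 CPM. In saline tumor 2, with 22 positive cells, they went from 19.96, 70.8 and 6.97 CPM to 290.3, 460.1 and 76.7 CPM. In free R848 tumor 1, Gas6 went from 7.58 to 11.04 CPM, Vcam1 from 41.4 to 0 CPM and Fcna from 1.01 to 0 CPM. Gbp2b had 0 CPM in positive cells of both medium R848-BPD tumors, and it had 84.0 and 290.3 CPM in negative and positive cells of saline tumor 2 and 40.9 and 99.3 CPM in those of free R848 tumor 1. The count of called genes was 0 without medium R848-BPD tumor 1, 169 without tumor 2, 28 without free R848 tumor 1 and 114 without saline tumor 2.

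Over the 15 means of class and treatment, the genes whose log2(CPM + 1) levels were most like those of Cd38 among 8670 genes were Serp1 (Pearson r = 0.84), Spen (0.82), Slc28a2 (0.81), Cpt1a (0.78) and Fyb (0.77). The points share libraries, so these values are a description. Within the 5 genes, Cd38 was most like Bst1 (r = 0.58) and least like Nampt (0.07), and the highest value of any pair was that of Nampt with Parp14 (0.81).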

How the data were processed

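Tumor cells were profiled on Seq-Well arrays in 3 saline, 3 free R848 and 2 medium R848-BPD tumors, 1 library each. The deposited count tables hold raw UMI counts per gene and barcode that the authors made from reads aligned to mm10; bcl2fastq is named without a version, and the aligner and annotation are not given in the sources used here. The quality limits were 400 to 10000 genes, 50000 UMIs and 15% mitochondrial counts per cell. Cells were clustered with Seurat 5.3.0 and classes named from markers, leaving 1049 genes (those of the authors' comparison table, the NAD list, Saa3 and Lcn2) out of the second clustering; Scrublet doublets were kept. Counts were summed per tumor and class (at least 10 cells) and tested with edgeR 4.0.16 (quasi-likelihood, TMM, Benjamini-Hochberg, threshold 0.05, all 3 treatments in the fit), after a test on simulated data. DESeq2 1.42.0, other filters, gates and left-out tumors were alternatives. The 5 genes and all lists were chosen with earlier results of these data known. Genes named were the 5, list genes past the threshold, the 5 leading genes each way between Cd38-positive and Cd38-negative cells, and the 5 most like each; others named for comparison were chosen after their values were seen. Intervals cover counting error only.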

Additional observations from a re-analysis of the deposited data

Results flagged for a closer look

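Monocyte/macrophage-like cells and another class differed in the response of 4 NAD list genes by edgeR's class-by-treatment term. For medium R848-BPDs over saline, against DC-like cells, the difference was -2.03 for Adora2a, -3.05 for Nmrk1 and -2.93 for Nt5e on the log2 scale. Adora2a differed little between treatments within DC-like cluster 10 (99.8, 114 and 130.4 CPM after saline, free R848 and medium R848-BPDs), which held 22.1% to 34.9% of DC-like cells after saline and 86.2% and 90.9% after medium R848-BPDs, and the part of this makeup in the difference was not tested. For Haao it was -4.58 against NK-like cells and -3.96 against T-like cells, and for medium R848-BPDs over free R848 it was -3.82 against NK-like cells. In T-like cells the 2 medium R848-BPD tumors disagreed, with 18.4 and 0 CPM of Haao. Nt5e in monocyte/macrophage-like cells rested on 2 saline tumors, at 83.2 and 86.8 CPM, with saline tumor 2 at 18.5 CPM. In DC-like cells it had 7.70 to 14.1 CPM after saline and 24.4 and 28.4 CPM after medium R848-BPDs.

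Cells outside the tested classes also held the transcripts after medium R848-BPDs. Cd38 had 201 CPM and Bst1 663 CPM in neutrophil-like cells. In the unnamed cluster, which lymphoid genes lead and in which 10% of cells were called doublets, Cd38 had 236 CPM (exact Poisson 95% interval 188 to 291), against 24.0 CPM after saline, and Bst1 had 222 CPM (176 to 276), against 52.8 CPM. The part of doublets in these levels was not tested.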

How the results depend on the processing

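Counts of NAD list genes called depended on the processing. In monocyte/macrophage-like cells, medium R848-BPDs over saline gave 12 without the filter on low counts, free R848 over saline gave 1 with DESeq2 and 4 without the filter, and medium R848-BPDs over free R848 gave 5 with DESeq2, 8 without the filter and 6 with only the 2 treatments. In DC-like cells, medium R848-BPDs over saline gave 5 with DESeq2, free R848 over saline gave 0 with DESeq2, 2 without the filter, 5 with direct marker gates and 0 with all variable genes, and medium R848-BPDs over free R848 gave 4 without the filter and 0 with direct gates. T-like cells gave 1 for medium R848-BPDs over free R848 without the filter. MC38-like cells gave 1, 5 and 1 over saline and 3, 5 and 1 over free R848 with DESeq2, no filter and direct gates. Between Cd38-positive and Cd38-negative cells, calls of all genes and of list genes were 247 and 3 with the gate on all UMIs, 23 and 0 with DESeq2, 242 and 1 without the filter, 222 and 1 with only medium R848-BPD tumors, and, in an alternative added once the data were seen, 152 and 1 with the gate on all UMIs and no medium R848-BPD tumor. Mean shares of monocyte/macrophage-like cells with a UMI after saline, free R848 and medium R848-BPDs were 4.57%, 7.75% and 65.7% for Cd38 and 25.9%, 32.7% and 69.6% for Bst1 without thinning; at 2000 UMIs they were 3.31% and 43.2% for Cd38 after free R848 and medium R848-BPDs, and 11.7%, 18.0% and 46.5% for Bst1. The causes were not tested.

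Leaving out each tumor in turn gave 2 to 9, 0 to 3 and 0 to 5 list genes in monocyte/macrophage-like cells for medium R848-BPDs over saline, free R848 over saline and medium R848-BPDs over free R848, 3 to 13, 0 to 1 and 0 to 3 in DC-like cells, 0 in NK-like and T-like cells, and 0 to 5, 0 and 0 to 5 in MC38-like cells, where the 5 came without medium R848-BPD tumor 1. The 9, 3 and 5 came without saline tumor 2, and the 2 without medium R848-BPD tumor 2. The 0 for medium R848-BPDs over free R848 came without free R848 tumors 2 and 3 and medium R848-BPD tumor 2. Between Cd38-positive and Cd38-negative cells it gave 0 to 169 genes and 0 to 1 list genes, and Bst1 was called without saline tumor 2 (edgeR adjusted p = 0.0158). No direction of a call reversed.

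Same-numbered tumors had correlations of their deviations from -0.24 to 0.22 over 5 classes, so the numbers were taken as names only. With the replicate number as a block, list genes called were 5, 0 and 2 in monocyte/macrophage-like cells and 5, 0 and 0 in DC-like cells. Over free R848 in monocyte/macrophage-like cells the block lost Bst1 and gained P2rx7 (log2 0.92, edgeR adjusted p = 0.0410), so the 2 called were Cd38 and P2rx7.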
